A study of Mus musculus with 31 samples.

Results

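The 16 libraries described here are single 2-cell mouse embryos generated by in vitro fertilization with control sperm, chosen by their treatment label out of 31 embryos in the series. The other embryos came from SER-treated sperm, which were held without glucose and pyruvate and then given them back before insemination, and they were not used here. All 16 are labelled WT. Sperm came from C57BL/6J males aged 12 to 14 weeks, and oocytes from superovulated CD1 females aged 8 to 10 weeks, so each embryo is a first-generation cross of an inbred father and an outbred mother. Control sperm were kept in the complete medium IVF-TYH +/+ throughout, met the cumulus-oocyte complexes for 4 h, and the fertilized oocytes were cultured in KSOM until collection at 32 h post-insemination. Each library was made by Smart-seq3 from 1 whole embryo, and a value is the number of reads counted on a gene, given below as counts-per-million (CPM) of that embryo's column total. In libraries made from whole embryos, a lower number of transcripts and a lower efficiency of their recovery cannot be told apart.

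The mouse 2-cell embryo carries RNA from 2 sources. The growing oocyte stores messenger RNA and the maternal proteins that run meiosis, fertilization and the first cleavage, and much of that store is degraded after fertilization. The embryo's own genome is switched on in a minor wave in the zygote and a major wave at the 2-cell stage, which brings a brief burst of 2-cell genes such as the Zscan4 and Usp17l families and the start of ribosomal and housekeeping transcription.

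The maternal and zygotic marker genes matched the label. Zbed3, a gene of the subcortical maternal complex that lies beneath the oocyte cortex, had a count in all 16 embryos, as did the maternal genes Gdf9, Bmp15, Nlrp5, Ooep, Tle6, Padi6, Zar1 and Btg4. The zygotic genes Zscan4d and Zfp352 were also counted in all 16, and Zscan4a, Usp17lc and Tdpoz1 in 15, all of them except replicate 4. Of the 14 listed blood and macrophage genes, 5 had no count in any embryo, Hba-a1 and Hbb-bs among them, and the list summed to 0.975 to 56.6 CPM. The 15 listed sperm genes summed to 112 to 321 CPM with a median of 220, and 2 of them, Odf1 and Smcp, had no count. Most of that sum was Odf2, a gene of the sperm tail that is also known from centrosomes, which was counted in all 16 embryos at 86.6 to 279 CPM with a median of 171. The sperm genes Ldhc and Tssk6 were counted in 14 embryos and Prm2 and Oaz3 in 12. The 20 listed cumulus and granulosa genes summed to 138 to 1905 CPM and are described below with replicate 5. Genes listed as blastocyst markers were not absent. Cdx2 was counted in 2 embryos with 2 counts each, but Gata3 in 15 at up to 36.9 CPM and Sox2 in 15 at up to 117 CPM. Nanog was counted in 11 embryos, and Gata6 and Eomes in 8 each.

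Depth ranged from 532945 counts in replicate 7 to 2085222 in replicate 2, with a median of 955806, so that 1 count was worth 0.480 to 1.88 CPM and the limit set by 3 counts lay at 1.44 to 5.63 CPM. Counts on protein-coding genes made up 93.7% to 97.6% of an embryo's total. Several embryos stood apart from the rest. The median Spearman correlation of an embryo with the other 15 was 0.491 for replicate 4, 0.522 for replicate 3 and 0.680 for replicate 1, against 0.731 to 0.815 for the others, and no 2 columns were identical. Replicate 5 had an ordinary correlation of 0.742 but held a block of genes at far higher levels than the other embryos. Where these embryos decide a count or a place below, the value without them is given.

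Oocyte genes and the ribosomal RNA precursor had the highest means. Zbed3 had the highest mean, with 3078 CPM in the lowest embryo, a median of 15185 and 68499 in the highest, a 22.3-fold range. Its mean was 20478 ± 18717 CPM (SD, n = 16). The 3 lowest embryos were replicates 3, 1 and 2, and the highest was replicate 4. Rn45s, the 45S precursor of ribosomal RNA, was next with 8853, 15895 and 48815 CPM in the lowest, median and highest embryo, and it too peaked in replicate 4. Zbed3 was the first gene in 8 embryos, Rn45s in 6 and Omt2b in 2, namely replicates 1 and 3.

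The oocyte maturation genes Omt2b and Omt2a were the third and the fifth gene by mean. Omt2b ranged from 5065 to 20338 CPM with a median of 6845, and Omt2a from 3340 to 15810 with a median of 4866. Both were highest in replicate 3 and next highest in replicate 1. Omt2b exceeded Omt2a in all 16 embryos, by 1.11 to 1.54 times with a median of 1.35. These genes lie near each other on chromosome 9 (Omt2a at chr9:78311972-78314796 on the minus strand and Omt2b at chr9:78327589-78329620 on the plus strand, mm10), and related copies such as these may share reads.

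A further 4 of the leading genes were high in every embryo. Tcl1, a coactivator of AKT kinase, ranged from 2204 to 7535 CPM with a median of 4881. Spin1, spindlin, a reader of methylated histone H3 first found on the meiotic spindle, ranged from 2858 to 8405 with a median of 4202. Oog3, an oogenesin of the PRAME family, ranged from 2066 to 8101 with a median of 4281, and Ccdc6, a coiled-coil protein gene, from 2482 to 9136 with a median of 6322. These 4 sat in the lowest 20% of genes for spread at their mean, at percentiles 11.2 to 19.7, whereas Zbed3 was at percentile 96.7, where 100 is the most variable gene. In all, 6 genes, namely Rn45s, Omt2b, Omt2a, Tcl1, Spin1 and Oog3, were among the 20 highest of every embryo.

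The rest of the 20 mixed maternal and regulatory genes. Bcl2l10, an oocyte member of the BCL2 family, ranged from 667 to 9320 CPM with a median of 2029. Btg4, the adaptor that brings the CCR4-NOT deadenylase to maternal messenger RNA, ranged from 673 to 6100 with a median of 1907. Mphosph6, an RNA exosome-associated phosphoprotein, ranged from 1156 to 7321 with a median of 2557. All 3 were highest in replicate 4, as were C86187, Trim61 and Ube2d3. Dppa3, also called Stella, which guards the maternal methylome, ranged from 1347 to 8595 with a median of 2157 and was highest in replicate 1. Mdm4, an inhibitor of p53, was the steadiest of the 20, at 1412 to 3429 CPM with a median of 2225. Hypk was the twentieth gene with a mean of 1812 CPM and was followed by Tcl1b1 with 1755. Of the 5278 exon bases of Hypk, 2745 are shared with the overlapping genes Serf2 and Serinc4, so its value is uncertain.

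Kmt2d, Lrrfip1 and Rbm38 divided the embryos. Kmt2d, a histone H3 lysine 4 methyltransferase, gave 104 CPM in replicate 3, 189 in replicate 1 and 532 in replicate 2, against 1447 to 4405 in replicates 4 to 16. Lrrfip1, which encodes a nucleic acid-binding leucine-rich repeat interactor, gave 164, 168 and 227 CPM in replicates 3, 1 and 2 and at least 1799 in the other 13. Rbm38, an RNA-binding protein gene, gave 237, 403 and 453 CPM in the same order and at least 1735 elsewhere. These embryos were seen to stand apart after the values were known, so the gap is a description. The labels do not say whether replicates 1 to 3 share a batch, and batch and embryo cannot be told apart here. Across 8514 ranked genes with an exon length, the Spearman correlation of an embryo's log2 difference from the median embryo with exon length was -0.206 in replicate 1, -0.101 in replicate 2 and -0.197 in replicate 3, and -0.138 to 0.180 in the other 13. The 852 shortest genes had a median difference of 0.97 on the log2 scale in replicate 3 and -1.13 in replicate 4. Genes are not independent replicates, and the part of exon length in these differences was not tested.

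**Figure D1:**
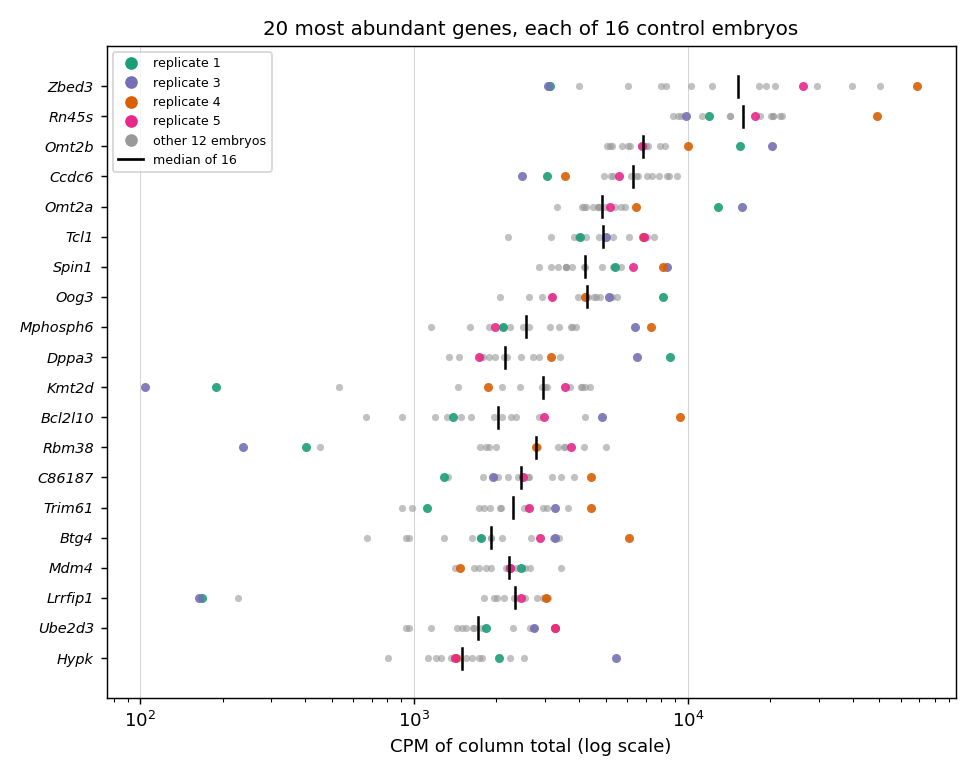
CPM of the 20 genes with the highest mean in each of the 16 control embryos, on a log axis, with 1 point per embryo and a black bar at the median of 16. Zbed3 spans 3078 to 68499 CPM, and replicates 1 and 3 lie far to the left for Kmt2d, Rbm38 and Lrrfip1.

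The 20 genes together took 10.1% ± 3.37 of counts (SD, n = 16), from 6.48% to 20.5%, the last in replicate 4. Between 358 genes in replicate 4 and 943 in replicate 15 made up 50% of an embryo's counts. Altogether 60 genes entered the first 20 of at least 1 embryo. Divided by exon length, 14 of the 20 remained among the 20 highest, led by Zbed3 with 9179 CPM per kb, Omt2b with 5257, Omt2a with 4130 and Dppa3 with 3217. Genes with short exons entered on that scale, among them Tcl1b1 (1688 CPM per kb), the cyclin-dependent kinase subunit gene Cks2 (1221), Oosp3 (1126), the ribosomal protein gene Rpl41 (990), the metallothionein gene Mt2 (960) and the respiratory chain gene Cox8a (910). Exon length was the union of all annotated exons, which can exceed the transcript that an embryo makes. Rn45s has no entry in the annotation used and so no value per kb.

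The abundant genes had promoters of both common kinds. RefSeq promoters (GRCm38.p6, 250 bases before the start to 50 after it, the first one listed for each gene) were matched for 17 of the 20, and 2 of these, Oog3 and C86187, held TATAAA on the coding strand, the only strand searched. The share was 8.56% of the 16113 genes of the table with a promoter and 3.88% of the 6957 ranked genes with one. CG dinucleotides per 100 bases had a median of 3.67 in the 17, 5 over all genes and 7.33 over ranked genes. The 250 bases before the start are shown for Oog3 (chr4:144162652-144162901, minus strand), which has 1 CG and a TATAAA beginning 29 bases before the start, and for Spin1 (chr13:51100630-51100879, plus strand), which has 42 CG and none, because these 2 steady and abundant genes lie at opposite ends of that range. Capitals mark CG and TATAAA.
Oog3: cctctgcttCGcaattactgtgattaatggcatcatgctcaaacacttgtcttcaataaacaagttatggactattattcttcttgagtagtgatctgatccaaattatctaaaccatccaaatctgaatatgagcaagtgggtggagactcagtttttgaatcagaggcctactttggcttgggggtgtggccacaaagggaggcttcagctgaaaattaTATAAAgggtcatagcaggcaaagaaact
Spin1: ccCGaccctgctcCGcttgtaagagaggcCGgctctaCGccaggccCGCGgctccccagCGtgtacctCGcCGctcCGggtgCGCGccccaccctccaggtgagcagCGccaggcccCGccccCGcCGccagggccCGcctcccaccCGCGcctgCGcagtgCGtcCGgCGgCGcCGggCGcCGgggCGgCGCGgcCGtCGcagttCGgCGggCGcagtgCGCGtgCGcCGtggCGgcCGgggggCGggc

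Of the 20544 genes in the table, 16983 had a count in at least 1 embryo and 6410 in all 16, which is 31.2 percent of the table. A further 3561 had none, so that each of these lay under the limit of 1.44 to 5.63 CPM set by 3 counts in an embryo. An embryo held a count for 10680 to 13220 genes, with a median of 11448.5. With every library thinned to 532945 counts the range was 9835 to 12730 genes, and 5839 genes were found in all 16. The 6410 genes carried 87.4% to 94.2% of an embryo's counts, with a median of 90.4%. With at least 10 counts required in every embryo, 3454 genes remained.

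**Figure D2:**
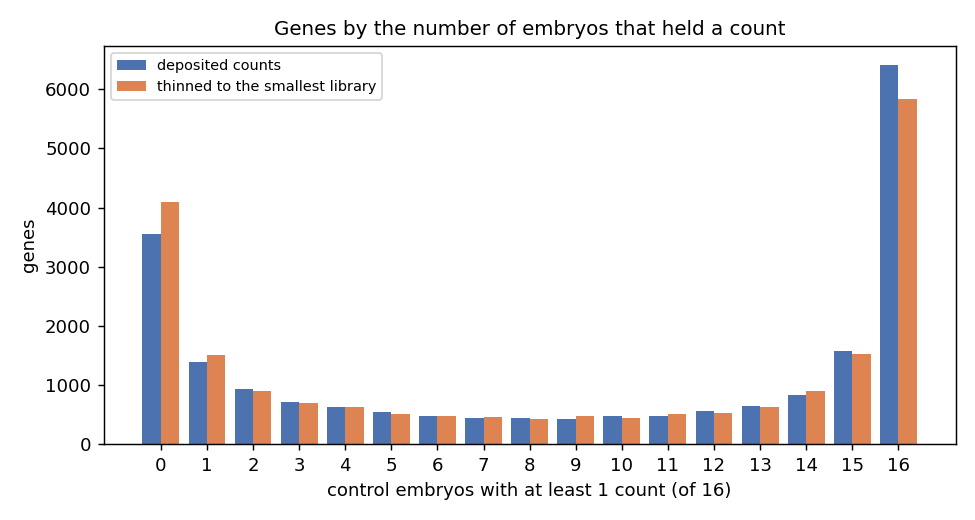
Number of genes (vertical axis) with at least 1 count in 0 to 16 control embryos (horizontal axis), from the deposited counts and after thinning every library to the smallest total. The bar at 16 embryos holds 6410 genes, or 5839 after thinning, and the bar at 15 holds 1568, or 1529 after thinning.

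Detection in every embryo was counted by list, where 31.2% of all genes in the table and 73.7% of the genes with a mean of at least 10 CPM were found in all 16. All 8 genes of the subcortical maternal complex list but 1 were found in all 16 embryos, as were 17 of 19 genes for storage and decay of maternal messenger RNA and 25 of 27 for meiosis and cell division. Proteasome subunits reached 32 of 39. The 2-cell burst list reached 8 of 32, with 6 of its genes never counted, but 24 of 32 without replicate 4, so that 1 embryo decided that count. At the low end of mean level, Psg16, a pregnancy-specific glycoprotein gene, was counted in every embryo at a mean of only 4.54 CPM, from 0.614 to 9.05. Psg16 and the genes without a full set of embryos named below were chosen after their values were seen.

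Missing values clustered in a few embryos. Of 1568 genes absent from exactly 1 embryo, 478 were absent from replicate 4, 338 from replicate 3, 178 from replicate 1, 111 from replicate 12 and 107 from replicate 15, against 2 from replicate 10. Replicate 4 had more counts in total than replicates 5, 6 and 7, from which 14, 8 and 23 such genes were absent. Without replicate 4, 6888 genes were found in all remaining embryos. A mean of at least 100 CPM was reached by 2522 genes, of which 116 were missing somewhere, 95 of them in replicate 4 alone.

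Some of the genes missing only in replicate 4 were abundant in the other 15. The 478 genes had a median mean of 40.9 CPM, against 51.2 over ranked genes. Exoc3l2, which encodes an exocyst-like protein, had a median of 1096 CPM and a highest value of 1965. Zfp622, a zinc finger gene, had a median of 804 and a highest value of 1323, and Obox6, an oocyte-type homeobox gene, a median of 370 and a highest value of 1335. Each had no count in replicate 4, which places it under 4.53 CPM there, the level of 3 counts. Over the table as a whole, 2.33% of genes were absent from replicate 4 alone, and of the 8611 genes with a mean of at least 10 CPM 462, or 5.37%. Of the 2-cell burst list, 16 of 32 genes were absent from replicate 4 alone, including Zscan4a, Zscan4c, Zscan4f, Usp17la, Usp17lb, Usp17lc and Tdpoz1. So were 18 of 87 ribosomal protein genes, such as Rpl3, Rpl28 and Rps15, and Sox2 among the lineage factors. None of the genes in the 5 lists of oocyte growth, subcortical maternal, oocyte-secreted, maternal mRNA and meiotic genes was missing in replicate 4 alone. This was not particular to them. Lists of 29 actin, tubulin and tropomyosin genes, 16 histone and oocyte chromatin genes and 12 DNA methylation genes also had none. Translation factors had 1 of 76.

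Spread between embryos was smaller at higher mean levels and exceeded counting error at all of them. Genes with a mean of at least 10 CPM, 8611 genes or 41.9 percent of the table, were ranked by the coefficient of variation (CV, the SD divided by the mean) relative to a smooth trend on mean CPM. The median CV was 0.733 for the 4242 genes with a mean of 10 to 50 CPM, 0.528 for the 3231 genes between 50 and 200 and 0.466 for the 1138 genes above 200. Counting error alone gave medians of 0.217, 0.110 and 0.0587. Only 6 genes, all in the lowest class, had a CV under 1.5 times their counting error. Internal reads carry no molecular identifier, so this counting error is a lower bound, and variation among embryos and variation among libraries cannot be told apart. Batches are not labelled for the embryos, and their part in the spread was not tested.

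**Figure D3:**
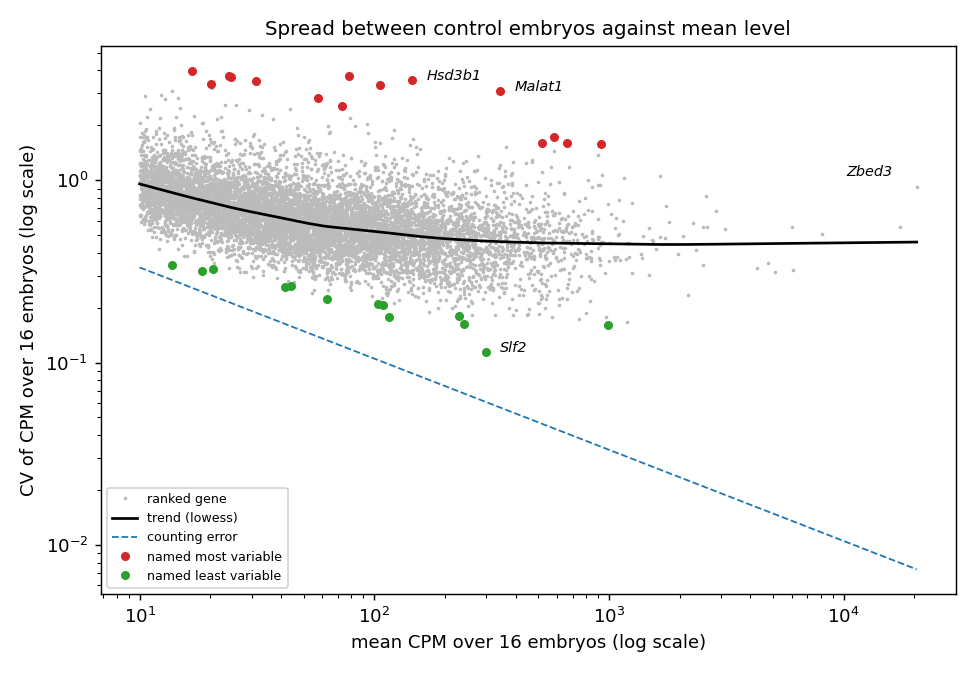
Coefficient of variation of CPM over 16 embryos against mean CPM for the 8611 ranked genes (grey), both axes logarithmic, with the trend in black, counting error dashed, and the genes named as most (red) and least (green) variable. Hsd3b1 and Malat1 lie above a CV of 3 and Slf2 lies at 0.115, all at means of 145 to 345 CPM.

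The steadiest gene was Slf2, which helps bring the SMC5-SMC6 complex to DNA lesions. It gave 235 CPM in the lowest embryo, a median of 292 and 360 in the highest, a CV of 0.115 where the trend stood at 0.464 and counting error at 0.0608. All 16 embryos lay within 1.54-fold of each other, including those that stood apart. Other steady genes above 200 CPM were Rbm6, an RNA-binding protein gene (183, 234 and 350 CPM, CV 0.163), Trip12, a ubiquitin ligase gene (640, 983 and 1321 CPM, CV 0.161), and Cdk2ap2, which encodes a CDK2-associated protein (169, 230 and 326 CPM, CV 0.180).

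Genes of varied function were steady at middle levels. Csnk2a1, the catalytic subunit of casein kinase 2, ranged from 67.9 to 150 CPM with a median of 109, and Skap2, an adaptor of Src-family kinases, from 76.7 to 149 with a median of 103. Togaram1, a ciliary microtubule gene, ranged from 76.0 to 155 with a median of 114, and Borcs5, a subunit of the complex that positions lysosomes, from 40.9 to 94.6 with a median of 60.4. These 4 had CVs of 0.177 to 0.223. Below 50 CPM the least variable were Dgkk, Acap2, Uri1, Prkaca and Rfx7, with CVs of 0.259 to 0.344. Dgkk nevertheless held 1 count, 0.984 CPM, in replicate 12, against a median of 13.8 and a highest value of 19.9. Prkaca, the catalytic subunit of protein kinase A, ranged from 7.87 to 29.7 CPM with a median of 20.7. Counting error was 0.158 to 0.283 for these 5 and makes up more of their spread than in the higher classes.

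Of the 15 genes named as most variable, 10 were highest in replicate 5. Hsd3b1, a steroid-making enzyme, had the highest spread for its mean, with a median of 3.39 CPM, no count in 7 embryos and 2071 CPM in replicate 5, which held 89.1% of its summed CPM. Cyp11a1, which cleaves the side chain of cholesterol at the start of steroid synthesis, had a median of 11.8 and 1423 in replicate 5. Adh1, an alcohol dehydrogenase gene, had a median of 0.874 and 1164 in replicate 5, and the nuclear noncoding RNA Malat1 a lowest value of 4.91, a median of 62.7 and 4307 in the same embryo. The matrix genes Mmp11, Cemip and Aebp1, the tetraspanin gene Cd81 and the enzymes Idh1 and Akr1cl completed this block. They had 65.5% to 93.3% of their summed CPM in replicate 5. Replicates 6 to 11 gave 30.7 to 76.4 CPM of Hsd3b1, 6.50 to 26.1 of Adh1 and 16.3 to 71.8 of Cyp11a1. In replicates 1 to 4 and 12 to 16 these genes reached at most 3.77, 1.75 and 14.6 CPM. Idh1 and Akr1cl were not divided in this way. The division was seen after the values were known, and batches are not labelled. Of the 100 most variable genes, 25 were highest in replicate 5. They summed to 14850 CPM there, against 62.6 to 846 in the other 15 embryos. These genes were grouped by their peak in replicate 5, so a higher sum there was fixed in advance. Their mean over the other 15 embryos had a median of 8.39 CPM. Many therefore reached the mean of 10 CPM for ranking only through replicate 5. Over all 8611 ranked genes, 579 were highest in replicate 5.

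Markers of the cells that surround the oocyte were examined beside this block. Over the 20 listed cumulus and granulosa genes, replicate 5 had the highest sum, 1905 CPM against 138 to 624 in the other 15. Besides Cyp11a1, Inhba, an activin subunit gene, gave 120 CPM in replicate 5 against at most 22.2 elsewhere, and Star, the cholesterol carrier of steroid-making cells, 21.5 against at most 9.38. Without Cyp11a1 the sum was 482 CPM in replicate 5 and 123 to 622 in the others. Gata4 and Amhr2, which the list also holds, went the other way. They gave 190 and 59.9 CPM in replicate 5, against medians of 299 and 106 in the other 15. The cumulus genes Has2, Ptgs2, Ptx3, Lhcgr and Cyp19a1 had no count in replicate 5, Foxl2 had 1 and Fshr 3. The part of such cells in the values of replicate 5 was not tested.

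Another block belonged to replicate 3. Of the 100 most variable genes, 51 were highest there, where the share over ranked genes was 12.7%. For 36 of these 51 replicate 1 was the next highest. The 51 genes were short, with a median of 1592 exon bases against 4653 over ranked genes. Oosp3, an oocyte-secreted protein gene, ranged from 208 to 6061 CPM with a median of 449, and its relative Oosp1 from 118 to 3983 with a median of 268. For both genes replicates 3 and 1 were the highest embryos. Ooep, a gene of the subcortical maternal complex, ranged from 17.0 to 743 with a median of 40.3, also with its peak in replicate 3.

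Replicate 4 held the highest value of 10 of the 100 genes and the lowest of 38. Over the 8611 ranked genes it held the highest value of 846, a similar share, and the lowest of 2078, or 24.1%. Zfp57, a zinc finger gene that protects imprints, gave 4364 CPM in replicate 4 against a median of 361 and a lowest value of 122. Oas1d, an oocyte member of the oligoadenylate synthetase family, gave 3596 against a median of 290 and a lowest value of 164. Without replicate 4 their spread stood at percentiles 8.36 and 37.0 of ranked genes, where 100 is the most variable, so that 1 embryo decided their place. Oas1 family members are similar in sequence and may share reads. Irgm1, an interferon-inducible GTPase gene, was the extreme case of a single embryo outside these, with 265 CPM in replicate 2, which was 99.4% of its total, and 1 count in only 1 other embryo.

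**Figure D4:**
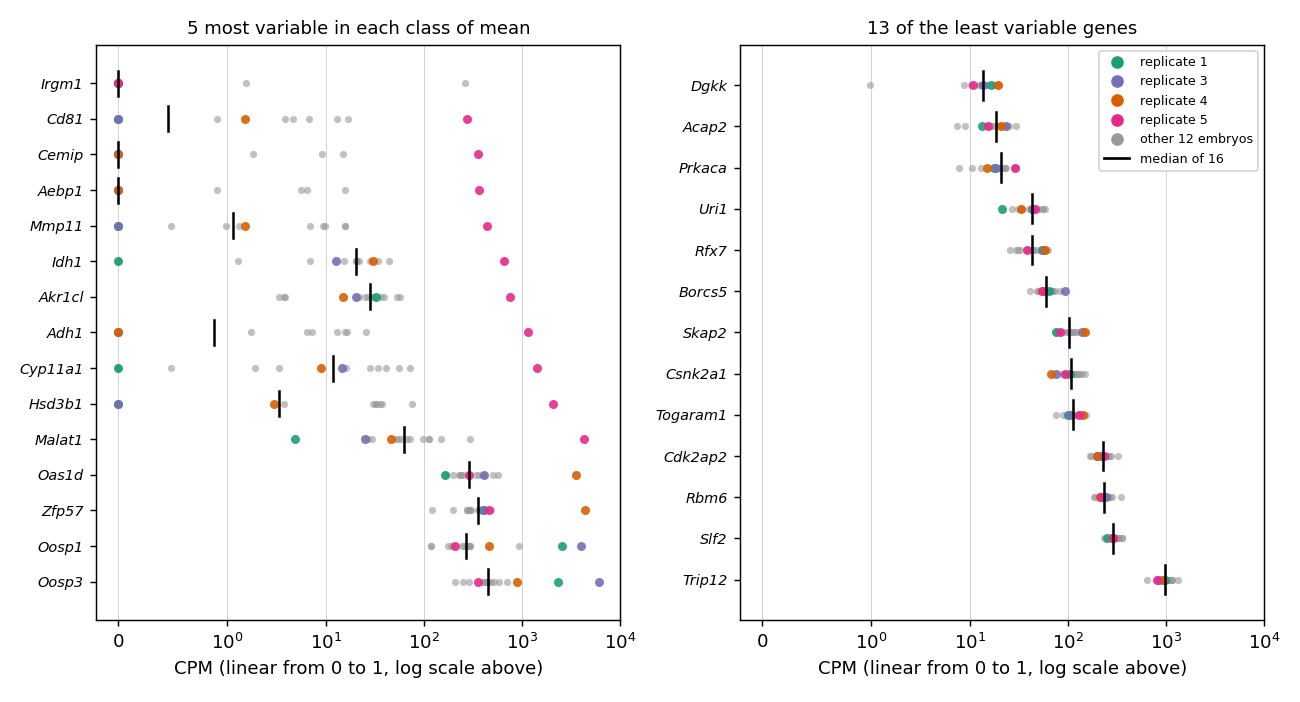
CPM in each of the 16 embryos for the 5 most variable genes in each class of mean (left) and 13 of the least variable genes (right), with the axis linear from 0 to 1 and logarithmic above, and black bars at medians. Replicate 5 is the isolated point on the right for 10 of the 15 most variable genes, and Slf2 stays between 235 and 360 CPM.

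The 100 most and 100 least variable genes were described by detection, length and promoter, with no test. All of the 100 least variable genes were counted in every embryo and 50 of the 100 most variable were, where the ranked genes gave 73.7%. Median exon length was 6878 bases in the least and 2560 in the most variable, with 4653 over ranked genes. In 35 of the most variable genes 1 embryo held over 50% of the summed CPM. Detection in every embryo and this share follow in part from the ranking by CV, so they partly restate it. CG dinucleotides per 100 promoter bases had medians of 9 in the 81 least variable genes with a RefSeq promoter and 5.67 in the 81 most variable with one, against 7.33 over ranked genes, and TATAAA was held by 4 and 5 of them, 4.94% and 6.17%. The 250 bases before the start of the most variable gene, Hsd3b1 (chr3:98859795-98860044, minus strand, 1 CG), and of the least variable gene with an entry, Togaram1 (chr12:64965492-64965741, plus strand, 14 CG), illustrate this, with CG in capitals. Neither holds TATAAA, which says only that these letters are not in this window.
Hsd3b1: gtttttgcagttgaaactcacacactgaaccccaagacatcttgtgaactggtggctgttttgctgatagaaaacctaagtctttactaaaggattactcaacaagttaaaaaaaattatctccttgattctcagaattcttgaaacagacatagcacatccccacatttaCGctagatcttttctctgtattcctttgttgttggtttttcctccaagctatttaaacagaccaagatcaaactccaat
Togaram1: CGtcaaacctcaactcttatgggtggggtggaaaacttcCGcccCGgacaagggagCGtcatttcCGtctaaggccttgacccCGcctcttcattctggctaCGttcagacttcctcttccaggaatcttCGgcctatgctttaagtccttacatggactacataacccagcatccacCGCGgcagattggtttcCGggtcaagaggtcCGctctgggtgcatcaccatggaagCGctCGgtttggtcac

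The ranking was repeated over 13 embryos, without replicates 3, 4 and 5, a choice made after the data were seen. Of the 100 most variable genes 39 were kept and of the 100 least variable 43. Of the 100 genes most variable over the 13, 76 were counted in each of them and 11 had over 50% of their CPM in 1 embryo. Their median exon length was 2134 bases, against 6044 in the 100 least variable, and their promoters had a median of 6 CG per 100 bases against 8.17. Slf2 remained among the 5 least variable above 200 CPM, with a CV of 0.126, joined by Dnaja2, a chaperone gene, with 473, 611 and 668 CPM in the lowest, median and highest of the 13. Oosp1 led the variable genes of that class with 118, 258 and 2559 CPM, its highest value now in replicate 1. Pttg1, which encodes securin, was the third of the class. It ranged from 289 to 7049 CPM with a median of 627, and it gave at least 1949 CPM in replicates 1, 12, 13, 14 and 15 and at most 688 in the other 8. Over all 16 embryos Pttg1 stood at percentile 98.6.

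Spread on a log scale picked out other genes. Ranked by the SD of log2(CPM + 1), 17 of the 100 most variable genes and 23 of the 100 least variable were the same. The log scale gives weight to absence. Of its 100 most variable genes, 68 were lowest in replicate 4, against 24.1% of ranked genes, and 62 had no count there. Hsd3b1 led on both scales. Next on the log scale came Ercc5, a DNA repair nuclease gene counted in 13 embryos with a median of 49.2 and a highest value of 216 CPM, and further down Mt1, a metallothionein gene, at 0 in replicate 4 with a median of 576 and a highest value of 5200. Zfp622, with no count in replicate 4, was the seventh gene on the log scale and stood at percentile 49.3 by CV.

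Many ribosomal protein genes had a wide spread. Of 87 such genes, 84 were ranked, and of these 40 lay in the most variable 10% of genes by CV, 1 in the least variable 10% and 77 above the trend, where all ranked genes gave 10 percent, 10 percent and 50.1 percent. Their summed CPM was 1417 in replicate 4, had a median of 13048 and reached 37949 in replicate 1. Of the 87 genes, 76 were lowest in replicate 4, 42 were highest in replicate 1 and 30 in replicate 3, where the shares over ranked genes were 24.1%, 8.27% and 12.7%. Rplp0, a ribosomal stalk protein, ranged from 72.4 to 2716 CPM with a median of 1293, Rpl8 from 24.1 to 1772 with a median of 851, and Rpl41 from 3.02 to 4659 with a median of 807. Without replicates 3, 4 and 5 the count in the most variable 10% was still 40 of 84, and without replicates 1, 3 and 4 it was 26 of 84, so that replicate 1 moved it. Many ribosomal protein genes have processed pseudogenes that can take or give reads.

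Respiratory chain genes encoded in the nucleus also had a wide spread over all 16 embryos. Of 86 such genes, 66 were ranked. Of these, 30 were in the most variable 10% and 57 above the trend, where all ranked genes gave 10 percent and 50.1 percent. Without replicates 3, 4 and 5, 21 of 63 were in the most variable 10%, and without replicates 1, 3 and 4 12 of 65. Without replicates 1, 3, 4 and 5 it was 7 of 62, with 32 above the trend, near the shares over all ranked genes. That choice was made after the data were seen, and those embryos decided the excess. Of the 86 genes, 35 were lowest in replicate 4, 16 highest in replicate 1 and 32 in replicate 3. These were 40.7%, 18.6% and 37.2%, where the shares over ranked genes were 24.1%, 8.27% and 12.7%. Their summed CPM ran from 2948 in replicate 4 to 16321 in replicate 3 with a median of 4664. Cox6b2, a subunit of cytochrome oxidase known from testis, ranged from 83.0 to 2092 CPM with a median of 178. Atp5b, the beta subunit of ATP synthase, ranged less, at 458 to 961 CPM with a median of 756. The median exon length was 1559.5 bases for this list and 1734 for the ribosomal one. No gene encoded by the mitochondrial genome is in the table.

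The oocyte lists held both steady and variable genes. Among 12 ranked oocyte-secreted and maturation genes, 9 were in the most variable 10%, but 2 of 12 were without replicates 3, 4 and 5 and 1 of 12 without replicates 1, 3 and 4, so those embryos decided that count. Of 18 ranked genes for storage and decay of maternal messenger RNA, 3 were in the most and 2 in the least variable 10%. Eif4e1b, an oocyte cap-binding protein gene, ranged from 244 to 2212 CPM with a median of 628 and its peak in replicate 4. Cnot7, a deadenylase of the CCR4-NOT complex, was steadier at 311 to 951 with a median of 502. The growth factor genes Gdf9 (224, 366 and 764 CPM) and Bmp15 (282, 658 and 2094 CPM) were counted in every embryo, and none of the 8 ranked genes of their list was in the most variable 10%.

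Zygotic lists had their lowest sums in replicate 4. Of 21 ranked 2-cell burst genes, 8 were in the most variable 10% and 1 in the least, and 7 of 22 were in the most variable 10% without replicates 3, 4 and 5 and 4 of 21 without replicates 1, 3 and 4. The sum over the list was 204 CPM in replicate 4, 725 to 3615 in the other 15 and highest in replicate 1. Usp17lb, a ubiquitin protease of the burst, had no count in replicate 4, a median of 291 and 851 CPM in replicate 1, and Zfp352, a zinc finger gene of the burst, 3.02, 132 and 559 CPM in the lowest, median and highest embryo. The Zscan4 and Usp17l families are nearly identical copies that may share reads. Genes of cell maintenance that start with the zygotic genome, such as the nucleolin gene Ncl (222, 565 and 1003 CPM), summed to 1298 CPM in replicate 4 and to 2512 to 6696 in the others. Only 1 of their 19 ranked genes was in the most variable 10%.

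Other lists of cell maintenance differed less in their sums. The summed CPM of ubiquitin-conjugating genes had a CV of 12.3% over embryos, from 5401 to 8249, and that of translation factors 13.5%, from 12102 to 20402. The sums of chaperones, glycolysis genes and proteasome subunits had CVs of 18.2%, 20.7% and 21.6%, beside 22.2% for meiosis genes. Of 31 ranked ubiquitin-conjugating genes 3 were in the most and 3 in the least variable 10%, and of 65 translation factors 10 and 6, with 37 of the 65 above the trend. Eif5a, a factor that helps ribosomes through difficult stretches, ranged from 609 to 2188 CPM with a median of 1253. Chaperones had 6 and 7 of 56, proteasome subunits 5 and 1 of 35, and glycolysis genes 1 and 1 of 13 in the most and the least variable 10%, each of which holds 10 percent of all ranked genes. The lineage factor Pou5f1, also called Oct4, ranged from 77.4 to 1370 CPM with a median of 498, and Klf17 from 278 to 1830 with a median of 965.

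**Figure D5:**
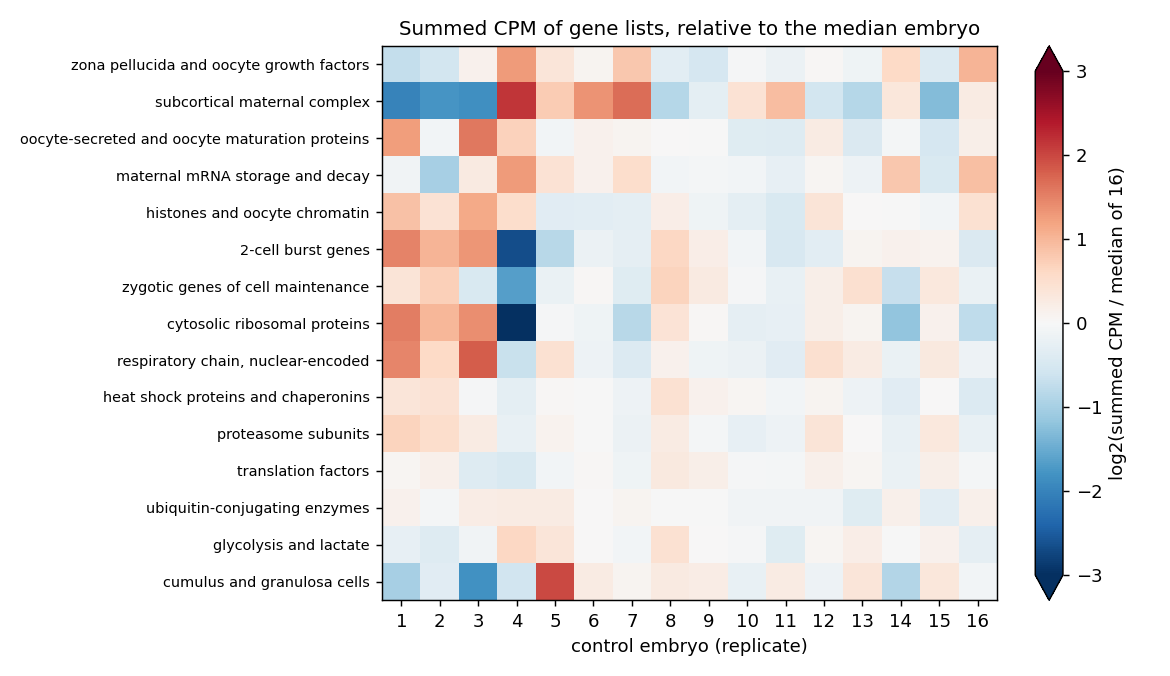
Summed CPM of 15 gene lists in each of the 16 embryos (horizontal axis), shown as log2 of the ratio to the median embryo, red above and blue below. Ribosomal proteins and 2-cell burst genes are lowest in replicate 4 (1417 and 204 CPM), and the cumulus and granulosa list is highest in replicate 5 (1905 CPM).

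Counts on Y-chromosome genes were either present or nearly absent in an embryo. The 12 listed Y genes summed to 0 or 1 count in 6 embryos and to 11 to 392 counts in the other 10, with none between. Replicate 4, with 1 count, was among the 6 and also had the lowest sum of 2-cell burst genes. Lack of a Y chromosome and few zygotic transcripts cannot be told apart in that embryo. Uty, a histone demethylase gene, was counted in 10 embryos with a highest value of 124 CPM, and Eif2s3y, a translation factor gene, in 9 with a highest value of 76.1. Xist, the RNA that coats the inactive X, was counted in 6 embryos with at most 20 counts. Xist overlaps its antisense gene Tsix, and the strand used in counting is not given in the sources used here.

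Relations across the 16 embryos were tested for 3 pairs of measures, each by 2-sided permutation with 100000 resamples, and none passed an adjusted p of 0.05. The summed CPM of the oocyte lists and of the 2-cell burst genes, both as log2, gave r = -0.481 (permutation p = 0.0587, Benjamini-Hochberg adjusted 0.106) and rho = -0.371 (permutation p = 0.158, adjusted 0.158). Zbed3 alone made up 68499 of the 102138 CPM of the oocyte lists in replicate 4 and 50343 of 72139 in replicate 7. In replicate 1 it was 3142 of 46704, so the oocyte sum is in large part the level of 1 gene in some embryos. Without replicates 4 and 15, the 2 embryos farthest from the median oocyte level, r was -0.152. With 1 embryo left out at a time r ranged from -0.629 to -0.127, so that leaving out 1 embryo could weaken the relation as much. Library total and genes detected after thinning gave r = -0.453 (permutation p = 0.0793, adjusted 0.106) and rho = -0.521 (permutation p = 0.0412, adjusted 0.0618), and r = -0.625 without replicates 2 and 7. Rn45s level and genes detected gave r = 0.417 (permutation p = 0.106, adjusted 0.106) and rho = 0.521 (permutation p = 0.0405, adjusted 0.0618), and r = 0.655 without replicates 4 and 14. Batches are not labelled, so no relation could be computed within them.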

How the data were processed

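The deposited table holds whole-number counts per gene that the authors made from Smart-seq3 libraries of single embryos. Reads from the 5′ end, which carry a molecular identifier, and internal reads were aligned apart by STAR. Duplicates were taken out by identifier (UMI-tools) or position (Picard), and featureCounts was run on the merged alignments. The build is mm10 in the submitters' processing notes, where featureCounts, STAR, Picard and DESeq2 are also named. Tool versions, annotation and strand setting are not given in the sources used here. Internal reads without an identifier are not independent molecules, so counting error and count limits are lower bounds. The 15 columns of SER-generated embryos were not used here, and no groups were compared.

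CPM was computed from column totals of 532945 to 2085222 counts. Genes with a mean CPM of at least 10 were ranked by log2 squared CV minus a lowess trend (span 0.3) on log2 mean CPM, with counts thinned to the smallest library where stated (Python 3.11.15, numpy 2.4.6, pandas 2.3.3, scipy 1.17.1, statsmodels 0.14.6). TMM factors and tagwise dispersions came from edgeR 4.0.16 and size factors from DESeq2 1.42.0 in R 4.3.3, as alternatives. On data simulated for 8611 genes in 16 embryos, all 50 genes of 8-fold dispersion and 49 of 50 of 4-fold dispersion were placed in the most variable 10%. The simulation gave unchanged genes the dispersion of the trend and held no embryos that stood apart. It therefore checks the calculation and does not show how well the ranking works on these embryos. The GENCODE vM21 annotation (GRCm38) gave exon lengths and positions for 20020 of 20544 symbols, and RefSeq gave promoters. Symbols of many histone genes have changed, and that list matched 16 genes.

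The genes named are the 20 highest by mean CPM and the 20 highest per kb of exon, the 5 most and 5 least variable in each class of mean (10 to 50, 50 to 200, 200 and over), up to 4 highest members of each of 25 gene lists, and markers. Of the least variable genes, 2 are not reported here. Others were chosen after their values were seen. The members and lists were chosen with earlier results of these data known. Each embryo is 1 library, the labels do not name its parents, and the independent batches the study mentions are not labelled.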

Additional observations from a re-analysis of the deposited data

How the results depend on the processing

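The result depended most on how spread was measured and on which embryos entered. Requiring 10 counts lowered the genes found in all 16 embryos from 6410 to 3454 and the median number detected from 11448.5 to 7960. Ranking took 13241 genes at a mean CPM of at least 1 and 4369 at 50, instead of 8611. Of the 100 most variable genes, 17 were kept with the SD of log2(CPM + 1) and 58 with edgeR's tagwise dispersion. Of the 100 least variable, 23 were kept with the SD of log2(CPM + 1) and 62 with TMM-scaled library sizes. Leaving out each embryo in turn kept 64 to 97 of the most and 63 to 91 of the least variable, the lowest of each without replicate 3. Alternatives added after seeing the data left out replicates 1, 3 and 4 (42 and 39 kept) or 3, 4 and 5 (39 and 43 kept).

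With each embryo left out, r ranged from -0.629 to -0.127 for oocyte and 2-cell burst levels, from -0.642 to -0.368 for library total and genes detected, and from 0.354 to 0.652 for Rn45s and genes detected. The unadjusted test passed 0.05 without replicate 1 or 3 for the first, without 2 for the second and without 4 for the last. The percentile of spread moved to the steadier 50% for Zfp57 (8.36 without replicate 4, 29.2 without 1, 3 and 4, and 15.5 without 3, 4 and 5), for Oas1d (37.0 without replicate 4), for Akr1cl (34.2 without replicate 5 and 47.7 without 3, 4 and 5) and for Oosp3 (37.4 without 1, 3 and 4). Over all settings of single genes, the highest values with one embryo out were 99.98 for Zfp57, 99.9 for Oas1d and 99.9 for Akr1cl. Of 699 percentiles of named variable genes under these settings, 613 lay within the jackknife error from leaving out embryos. That error comes from the same values with 1 embryo out, so the count is not a separate check. All 360 values of mean CPM for the 20 most abundant genes lay within 1 SD of the first value. Leaving out 1 of 16 embryos cannot move a mean by 1 SD, so for those settings this was fixed in advance. No paired analysis was possible because only control embryos were described, and the replicate numbers they share with SER-generated embryos pair nothing here. Depth limits detection: 3 counts are 1.44 to 5.63 CPM.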
